A study of Mus musculus with 6 samples.

Results

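Cells answer type I interferon by phosphorylating STAT proteins, which join IRF9 and bind the interferon-stimulated response element in the promoters of many genes. Among the most responsive of those genes are the 10 effectors and restraints described here. They are Ifit1, Ifit2 and Ifit3, which encode tetratricopeptide-repeat proteins that bind foreign RNA or partner with each other, Isg15, a ubiquitin-like protein that is attached to other proteins, and Usp18, the protease that removes ISG15 and restrains the interferon receptor. The others are Rsad2 (viperin), an enzyme that makes a chain-terminating nucleotide, Mx1 and Mx2, dynamin-like GTPases that block viral particles, Ifi44, an interferon-induced protein found in the cytoplasm, and Isg20, an exonuclease that degrades RNA. They were chosen by gene symbol, with earlier results of these data known, and all 10 were found among the 18182 genes of the deposited tables.

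The RNA came from Lewis lung carcinoma, called LLC, a tumour line of C57BL/6 origin whose cells were here labelled with red fluorescent protein (LLC-RFP). Wild type C57BL/6 mice were given LLC-RFP subcutaneously, either alone or together with bone marrow-derived mesenchymal stem cells (BMSCs), and red cells were recovered from the primary cancer sites by flow cytometry and sequenced. There were 3 libraries from LLC injected alone and 3 from the co-injection (LLC with BMSCs), so the comparison asks how tumour cells that grew with co-injected BMSCs differ from those that grew without them. The study's methods give an age and the female sex for mice that carried LLC allografts with a luciferase gene, but for the mice behind these libraries the sources state neither their age nor whether each library came from its own animal, so that p-values measure the spread between these samples, which may be technical. Both groups passed through the same tumour site and the same sort, and no library of LLC cells kept in culture was analysed here.

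The deposited estimated counts summed to between 33476347 and 46189113 per library. In each group 1 library stood apart from the other two: counts differed by 2.07 times the variance of sampling noise between LLC alone replicates 1 and 2, but by 19.3 and 19.5 times between replicate 3 and these, and by 1.79 times between LLC with BMSCs replicates 2 and 3, against 6.17 and 6.46 times between replicate 1 and these (median chi-square over its expectation). All 10 genes kept their call when either library was left out. A gene was called when its adjusted p in edgeR's quasi-likelihood test, with Benjamini-Hochberg adjustment over the 13353 genes tested, was under 0.05.

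All 10 genes were higher in LLC with BMSCs and passed this test, beside a background of 31.5% of all tested genes called higher and 31.3% called lower. Their median log2 fold change was 4.44, against 0.01 over all tested genes. Under a stricter rule, which asked for an adjusted p below 0.001 and for log2 fold changes of 1 or more, 8 of the 10 were called higher, beside 6.81% of all tested genes, and Ifit2 and Isg20 were not. The FPKM values of the groups, that is fragments divided by transcript length and by library size, did not overlap for any of the 10 genes. Of all tested genes, 37% were likewise higher in LLC with BMSCs with no overlap between the groups. For a single gene, the exact two-sided permutation test of 3 against 3 libraries cannot give less than p = 0.1, and it gave 0.1 for each of the 10. Of the 10, 6 reached the low-count filter in the LLC alone libraries by themselves, and Usp18, Mx1, Mx2 and Ifi44 entered the test through LLC with BMSCs. In sorted bulk RNA, fewer cells of a type and less RNA per cell cannot be told apart.

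The promoters are shown because some held exact matches to the core of the response element and others did not. The core searched was TTTC, any 2 bases and TTTC again, which reads GAAA, any 2 bases and GAAA on the other strand, and overlapping matches were counted. RefSeq promoter windows (GRCm38.p6, from 250 bases before to 50 bases after each start) were given for 7 of the 10 genes, with 2 windows for Ifit2 and 3 for Isg20. Windows for Usp18, Mx1 and Mx2 were not among them. The core lay in a window of 4 of these 7 genes, namely Ifit1, Ifit3, Isg15 and Rsad2, while 3.99% of the 27025 genes with a window held it, and 3.82% of the 10204 tested genes with a window. With 1 mismatch allowed in the fixed bases, all 7 held it, as did 38.9% of all genes with a window. The 250 upstream bases of 6 windows follow, 5′ to 3′ on the strand of the gene, with exact matches to the core in capitals.
Ifit1 (chr19:34640639-34640888, plus strand): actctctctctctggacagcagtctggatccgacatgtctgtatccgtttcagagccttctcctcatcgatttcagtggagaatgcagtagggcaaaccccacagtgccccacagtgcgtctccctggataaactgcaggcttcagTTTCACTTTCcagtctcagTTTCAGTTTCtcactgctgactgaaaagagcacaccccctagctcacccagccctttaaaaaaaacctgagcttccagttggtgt
Ifit3 (chr19:34583279-34583528, plus strand): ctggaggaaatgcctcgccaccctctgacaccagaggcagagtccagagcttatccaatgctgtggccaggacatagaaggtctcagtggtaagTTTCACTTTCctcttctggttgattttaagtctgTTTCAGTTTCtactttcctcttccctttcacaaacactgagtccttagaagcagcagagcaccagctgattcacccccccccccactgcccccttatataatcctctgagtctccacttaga
Isg15 (chr4:156200819-156201068, minus strand): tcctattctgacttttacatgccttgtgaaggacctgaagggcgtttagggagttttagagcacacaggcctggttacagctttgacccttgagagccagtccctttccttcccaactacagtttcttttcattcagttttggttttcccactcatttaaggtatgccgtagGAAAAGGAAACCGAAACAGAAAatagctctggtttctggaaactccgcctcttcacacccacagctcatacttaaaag
Rsad2 (chr12:26456453-26456702, minus strand): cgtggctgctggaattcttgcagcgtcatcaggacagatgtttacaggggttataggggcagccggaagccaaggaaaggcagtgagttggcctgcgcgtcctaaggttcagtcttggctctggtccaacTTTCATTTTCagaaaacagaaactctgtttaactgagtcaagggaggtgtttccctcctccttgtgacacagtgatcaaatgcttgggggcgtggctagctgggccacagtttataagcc
Ifi44 (chr3:151749911-151750160, minus strand): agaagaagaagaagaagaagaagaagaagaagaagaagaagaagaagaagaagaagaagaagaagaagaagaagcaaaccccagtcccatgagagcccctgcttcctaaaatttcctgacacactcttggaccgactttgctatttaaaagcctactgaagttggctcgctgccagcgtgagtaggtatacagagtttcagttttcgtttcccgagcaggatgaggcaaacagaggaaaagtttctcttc
Ifit2, the first of its windows (chr19:34550444-34550693, plus strand): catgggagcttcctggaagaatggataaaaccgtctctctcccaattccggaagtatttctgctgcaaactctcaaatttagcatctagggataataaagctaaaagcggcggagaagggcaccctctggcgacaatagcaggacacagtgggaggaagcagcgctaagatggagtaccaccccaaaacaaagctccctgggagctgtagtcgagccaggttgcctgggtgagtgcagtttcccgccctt

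The Ifit1 window held the core at 95 and 76 bases before the start, and the Ifit3 window held the same pair of sequences, TTTCACTTTC and TTTCAGTTTC, at 147 and 113 bases (distances to the match's nearest base). In Isg15 there were 3 overlapping matches at 69, 63 and 57 bases, all written as purines on the gene's strand. Rsad2 had a single match at 111 bases. Ifi44, the gene with the largest fitted change, had no exact match in its window, and neither had Ifit2 or Isg20, the genes with the smallest. A match is a run of letters and not a measured binding site, and no match says only that these letters are not in the window.

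**Figure D1:**
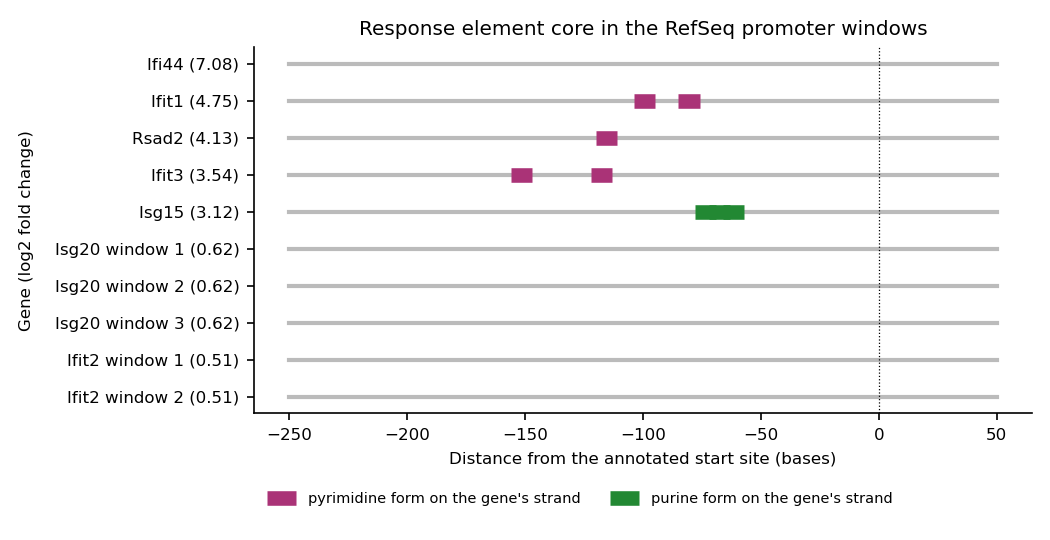
Exact matches to the response element core in the RefSeq promoter windows of 7 genes, plotted by distance in bases from the annotated start (dotted line), with the log2 fold change of each gene in brackets. Purple blocks are the pyrimidine (TTTC) form and green blocks the purine (GAAA) form on the strand of the gene, and the 3 green blocks of Isg15 overlap; Ifi44, Isg20 and Ifit2 have none.

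Ifit1, Ifit2 and Ifit3 lie in one cluster on chromosome 19, in the order Ifit2, Ifit3, Ifit1bl1, Ifit3b, Ifit1bl2 and Ifit1. Ifit1, whose protein holds on to RNA that lacks the methyl marks of host caps, had FPKM values of 0.26, 0.19 and 0.30 in LLC alone and 6.42, 7.06 and 7.26 in LLC with BMSCs. Its lowest value with BMSCs was far above its highest value without them, and it rose by a log2 fold change of 4.75 (SE 0.14, n = 3 against 3, edgeR adjusted p = 3.09e-07). Ifit3 had values of 0.25, 0.28 and 0.26 in LLC alone and 2.93, 3.35 and 3.16 in LLC with BMSCs. Within each group its libraries lay close together, and the log2 fold change was 3.54 (SE 0.13, edgeR adjusted p = 6.21e-07).

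Ifit2, the family member tied to cell death after interferon, had a higher level in LLC alone and a smaller change than Ifit1 and Ifit3. Its FPKM was 4.77, 5.10 and 4.18 in LLC alone and 6.71, 6.94 and 6.69 in LLC with BMSCs. It was thus already expressed in LLC alone, at a mean of 4.68 ± 0.47 (SD, n = 3) against 0.25 ± 0.06 for Ifit1 and 0.26 ± 0.02 for Ifit3. The groups did not overlap, but the log2 fold change was 0.51 (SE 0.08, edgeR adjusted p = 0.000796). Of the summed FPKM of the 3 genes, Ifit2 made up 88.2% to 91.6% in LLC alone and 39.1% to 41.8% in LLC with BMSCs, while Ifit1 went from 3.41%–6.33% to 40.0%–42.4% and Ifit3 from 4.74%–5.49% to 18.2%–19.3%. The ratio of Ifit1 to Ifit3 FPKM was 0.96 ± 0.25 in LLC alone and 2.20 ± 0.10 in LLC with BMSCs (SD, n = 3, exact permutation p = 0.1).

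Some reads of the cluster were divided between near-identical genes, which leaves the single counts uncertain. Ifit3 had counts that were not whole in 3 libraries, and in those libraries its sum with Ifit3b was whole. Ifit3 plus Ifit3b gave 24, 18 and 23 counts in LLC alone and 343, 356 and 357 in LLC with BMSCs, a log2 ratio of 3.92. Ifit1 had a count that was not whole in 1 library. There 145 genes, with Ifit1bl2 among them, summed with it to a whole number, so its partner was not identified. Ifit1 plus Ifit1bl2 gave 33, 17 and 37 counts against 749, 814 and 832, a log2 ratio of 4.72. Both sums were higher in each library with BMSCs, and the sum of Ifit3 and Ifit3b does not depend on how reads were divided between them.

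**Figure D2:**
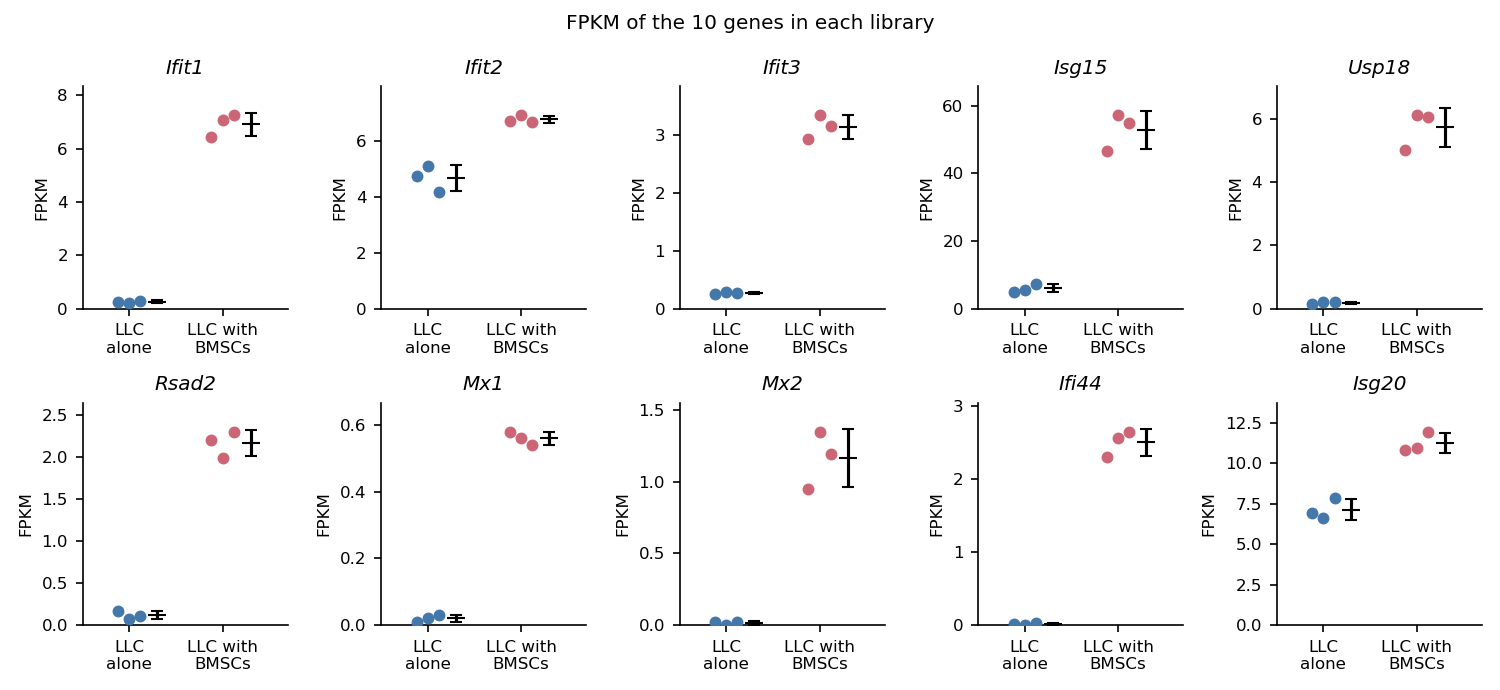
FPKM of each of the 10 genes in the 3 libraries of LLC alone (blue points) and the 3 of LLC with BMSCs (red points), with the mean (horizontal mark) and SD (bar) of each group in black; each panel has its own axis from 0. The groups do not overlap in any panel, and Ifit2 and Isg20 have clear levels in LLC alone, with means of 4.68 and 7.13.

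Isg15, the ubiquitin-like modifier, was the most abundant of the 10 in LLC with BMSCs. Its FPKM was 5.0, 5.55 and 7.31 in LLC alone and 46.5, 57.3 and 55.0 in LLC with BMSCs. The library lowest in Isg15 with BMSCs lay far above the highest without them, and the log2 fold change was 3.12 (SE 0.15, edgeR adjusted p = 2.48e-06). Usp18, which removes ISG15 from proteins, had values of 0.13, 0.19 and 0.20 against 5.02, 6.11 and 6.06. It was barely expressed in LLC alone, at 10, 11 and 16 counts, and had 382, 460 and 453 counts in LLC with BMSCs, a log2 fold change of 5.02 (SE 0.18, edgeR adjusted p = 5.95e-07). The ratio of Isg15 to Usp18 FPKM fell from 38.5, 29.2 and 36.5 to 9.27, 9.38 and 9.08 (exact permutation p = 0.1, the smallest possible). On the annotation, exons of Usp18 overlap only the antisense gene Gm44148, which was not in the deposited tables. The strand setting of the counting is not given in the sources used here, so antisense reads cannot be told apart from those of Usp18.

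The enzymes that attach ISG15 were a list of 5 genes, and all 5 were called higher, by less than Isg15 itself in 4 of them. Over all tested genes, 31.5% were called higher. Uba7, the activating enzyme, had a mean FPKM of 0.30 ± 0.03 in LLC alone and 3.52 ± 0.29 in LLC with BMSCs (log2 fold change 3.54, edgeR adjusted p = 4.03e-07). The conjugating enzyme Ube2l6 was present in both groups, at 12.1 ± 0.54 and 21.3 ± 0.74 (0.79, adjusted p = 3e-05). The ligases Herc6 (1.36, adjusted p = 9.03e-06), Trim25 (1.02, adjusted p = 7.21e-05) and Arih1 (0.29, adjusted p = 0.00881) completed the list, and the call of Arih1 was lost when the trend of each library over gene length was removed (log2 fold change 0.01, adjusted p = 0.919). The ratio of Isg15 to Ube2l6 FPKM went from 0.49 ± 0.08 to 2.48 ± 0.19, and that of Isg15 to Herc6 from 2.99 ± 0.93 to 10.1 ± 1.22. That of Isg15 to Uba7 went the other way, from 20.1 ± 3.77 to 15.0 ± 0.53 (SD, n = 3, exact permutation p = 0.1 for each of these ratios).

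Rsad2, the gene for viperin, had FPKM values of 0.17, 0.07 and 0.11 in LLC alone and 2.20, 1.99 and 2.30 in LLC with BMSCs. The groups were well apart, although the 9 to 29 counts of Rsad2 in LLC alone were few. The log2 fold change was 4.13 (SE 0.21, edgeR adjusted p = 3.47e-06). Cmpk2, the nucleotide kinase whose gene lies next to Rsad2 on chromosome 12, was at a mean FPKM of 0.06 ± 0.01 against 3.20 ± 0.10 (log2 fold change 5.81, SE 0.14, edgeR adjusted p = 1.02e-07).

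The Mx genes lie close together on chromosome 16 and had the lowest levels of the 10 in both groups, beside Ifi44 in LLC alone. As background, C57BL/6 and most other laboratory strains carry Mx1 and Mx2 alleles that make no working protein. Mx1 had 1, 2 and 4 counts in LLC alone and 74.8, 72 and 68.7 in LLC with BMSCs. In FPKM this was 0.01, 0.02 and 0.03 against 0.58, 0.56 and 0.54. Summed over libraries and scaled to depth, the counts with BMSCs were 28.9 times those without (exact 95% interval 13.8 to 72.7, counting error only), and the fitted log2 fold change was 4.78 (SE 0.30, edgeR adjusted p = 9.04e-06). Mx2 had 2, 0 and 2 counts against 99.2, 140 and 122. Its FPKM values with BMSCs were 0.95, 1.35 and 1.19, which was the highest coefficient of variation of the 10 in that group (17.2% in normalized counts). The count ratio was 84.5 (interval 32.7 to 312) and the fitted log2 fold change 6.28 (SE 0.38, edgeR adjusted p = 7.8e-06).

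Counts of Mx1 and Mx2 that were not whole occurred in the same 2 libraries, and there they summed to whole numbers. In those libraries 7 genes, Mx2 among them, summed with Mx1 to whole numbers, so its partner was not identified. The sum of Mx1 and Mx2 was 3, 2 and 6 in LLC alone and 174, 212 and 191 in LLC with BMSCs, a log2 ratio of 5.66. Within Mx1, 72.3, 69.4 and 67.4 counts in LLC with BMSCs were assigned to a transcript of 2975 bases that carries no RefSeq identifier and was named by the authors' pipeline. The RefSeq transcript of Mx1 received 2.49, 2.57 and 1.25 counts. Between 96.4% and 98.2% of the FPKM of Mx1 thus came from a transcript other than the reference one.

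Ifi44 showed the largest fitted change of the 10. It had 2, 0 and 4 counts in LLC alone and 283, 313 and 323 in LLC with BMSCs. The FPKM values were 0.02, 0 and 0.03 against 2.30, 2.56 and 2.65, where 0 means that the gene was not listed for that library. The count ratio was 143 (exact 95% interval 65.6 to 392) and the fitted log2 fold change 7.08 (SE 0.31, edgeR adjusted p = 1.54e-06). Its FPKM in LLC with BMSCs was divided between the RefSeq transcript, at 1.05, 1.34 and 1.60, and a transcript without a RefSeq identifier, at 1.25, 1.22 and 1.05. In LLC alone the RefSeq transcript of Ifi44 was at 0 in each library, where 0 can again mean that it was not listed. Ifi44l, its neighbour on chromosome 3, stayed below the low-count filter in every library.

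Isg20, the exonuclease, was the most abundant of the 10 in LLC alone by its mean. Its FPKM was 6.92, 6.60 and 7.86 in LLC alone and 10.8, 10.9 and 12 in LLC with BMSCs. The groups did not overlap, and the log2 fold change was 0.62 (SE 0.10, edgeR adjusted p = 0.000867). The transcript NM_020583 carried 74.6% to 86.4% of the FPKM of Isg20 in the 6 libraries, and another, NM_001291221, was listed above 0 only in LLC with BMSCs replicate 1, at 0.60. Isg20l2, a relative that works in ribosome assembly, was at 49.2 ± 2.43 and 51.4 ± 2.31 FPKM, a log2 fold change of 0.04 (SE 0.06) that did not pass the test (edgeR adjusted p = 0.56).

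**Figure D3:**
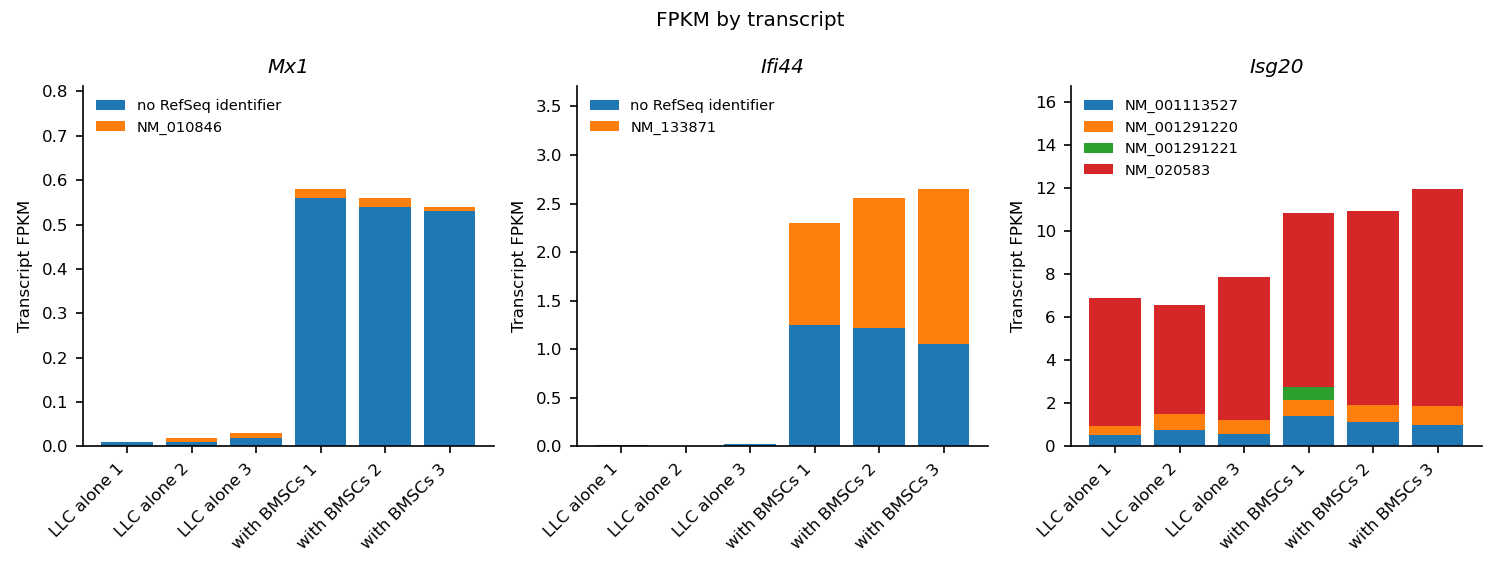
FPKM of each transcript of Mx1, Ifi44 and Isg20 in the 6 libraries, stacked so that the height of a bar is the gene's FPKM. The RefSeq transcript takes 1.85% to 3.57% of Mx1 and 45.7% to 60.4% of Ifi44 in LLC with BMSCs, and NM_020583 takes most of Isg20 in every library.

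Compared per length in FPKM, the order of the levels differed between the groups. In LLC alone, Isg20 (7.13), Isg15 (5.95) and Ifit2 (4.68) led, and each overlapped with the next in its range over libraries. Ifit3, Ifit1, Usp18 and Rsad2 followed at means from 0.26 down to 0.12, again with each overlapping the next, and Mx1, Ifi44 and Mx2 were at 0.02 or less. In LLC with BMSCs, Isg15 (52.9 ± 5.68) stood first without overlap, and Isg20 (11.2 ± 0.63) was next. Ifit1 (6.91 ± 0.44) and Ifit2 (6.78 ± 0.14) overlapped, as did Ifi44 (2.50 ± 0.18) and Rsad2 (2.16 ± 0.16), while Usp18 (5.73 ± 0.62), Ifit3 (3.15 ± 0.21), Mx2 (1.16 ± 0.20) and Mx1 (0.56 ± 0.02) each took a place of their own. The 10 genes together had a summed FPKM of 17.6, 18 and 20.3 in LLC alone and 84.5, 98.1 and 96.8 in LLC with BMSCs. The share of Isg15 in this sum was 31.8% ± 3.85 and 56.8% ± 1.66, that of Isg20 38.3% ± 1.43 and 12.1% ± 0.88, and that of Ifit2 25.4% ± 4.18 and 7.31% ± 0.56 (SD, n = 3).

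**Figure D4:**
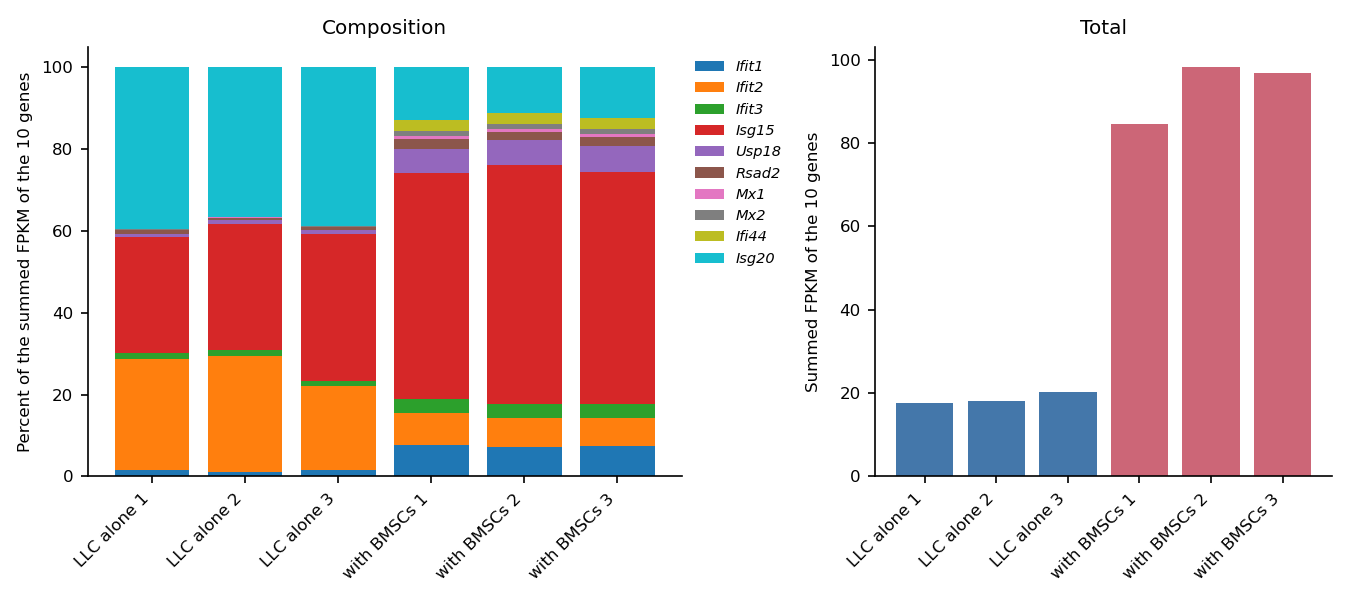
Left, the percent that each of the 10 genes takes of their summed FPKM in each library; right, the summed FPKM (blue, LLC alone; red, LLC with BMSCs). Isg20, Isg15 and Ifit2 fill nearly all of each LLC alone bar, and Isg15 takes 55.1% to 58.4% of each LLC with BMSCs bar.

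The genes also varied within groups. LLC with BMSCs replicate 1, the library that stood apart in that group, had the lowest FPKM for 7 of the 10 genes, and LLC alone replicate 3 had the highest for 7 of the 10. The coefficient of variation of the normalized counts ran from 1.89% to 17.2% over the 10 genes in LLC with BMSCs, with a median of 6.84% beside 5.38% over all tested genes. In LLC alone it ran from 4.17% to 100.2%, with a median of 23.4% beside 9.23%, and the genes with few counts lay at the upper end. Leaving out each library in turn, the log2 fold change of Isg15 ranged from 3.00 to 3.32, that of Ifit1 from 4.61 to 4.89 and that of Ifi44 from 6.66 to 7.94, the last without LLC alone replicate 3.

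The genes upstream of the 10 were taken as lists, with no test of a list. Of the 10 genes of the interferon signal chain, 8 were called higher and 0 lower, beside 31.5% and 31.3% of all tested genes. In the LLC alone libraries by themselves 9 of the 10 reached the low-count filter, and Irf9 entered the test through LLC with BMSCs. Stat2, a subunit of the factor that binds the response element, was at 1.76 ± 0.07 and 21.4 ± 0.80 FPKM (log2 fold change 3.58, SE 0.07, edgeR adjusted p = 7.59e-08). Irf9, the DNA-binding subunit of that factor, had FPKM values of 0.10, 0 and 0 against 6.34, 4.59 and 4.48 (7.07, SE 0.52, adjusted p = 2.03e-05), with 11 counts in all of LLC alone and 1627 in LLC with BMSCs (count ratio 138, exact 95% interval 77.2 to 278) and counts that were not whole in 4 libraries. All 11 lay in LLC alone replicate 1, and without that library, when both remaining ones are at 0, the fitted value went to 12.02, which depends on the prior count and is no bound. Leaving out any other library gave 6.44 to 7.17. Irf7, the regulator that amplifies interferon production, was at 0.28 ± 0.05 and 10.5 ± 0.42 (5.21, SE 0.12, adjusted p = 1.02e-07), and Irf1 at 7.79 ± 0.34 and 47.3 ± 1.07 (2.58, SE 0.06, adjusted p = 1.02e-07). The receptor chains and kinases changed by less than a log2 fold change of 1: Tyk2 by 0.65, Ifnar2 by 0.63, Ifnar1 by 0.57 and Jak1 by 0.27. Jak1 lost its call with the length trend removed (log2 fold change 0.03, adjusted p = 0.544), and also without any one of the 3 LLC with BMSCs libraries (0.25 to 0.28) or with the closely alike libraries summed (0.33). Irf3, which acts before interferon is made, had a log2 fold change of 0.13 (edgeR adjusted p = 0.276), and Socs1, a feedback inhibitor, of 0.04 (adjusted p = 0.766). Without LLC alone replicate 3, Irf3 was called at 0.24 (adjusted p = 0.00994).

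Of the 10 relatives of the effectors, 7 were tested and 6 of those were called higher, beside 31.5% of all tested genes. Only 3 of the relatives reached the low-count filter in the LLC alone libraries by themselves. Oasl2, Cmpk2, Ifit3b and Ifit1bl2 entered the test through LLC with BMSCs, so their direction was fixed by the filter. Oasl2, a ubiquitin-like member of the oligoadenylate synthetase family, was at 0.06 ± 0.01 and 12.2 ± 0.31 FPKM, with a log2 fold change of 7.76 (SE 0.10, edgeR adjusted p = 3.71e-08). Ifit3b had 1.33, 0 and 0 counts against 91.5, 71.3 and 90, which were divided with Ifit3 as given above. Its fitted log2 fold change was 7.44 (SE 0.44, edgeR adjusted p = 7.4e-06) and went to 9.33 without LLC alone replicate 1, the only library of that group with a count, again a value set by the prior count. Ifi35 rose by 1.34 and Ifi27 by 0.82 on the log2 scale, and Ifit1bl2, with a count that was not whole in 1 library, by 2.96. Ifit1bl1 and Ifi27l2a, like Ifi44l, did not pass the low-count filter. In the RefSeq windows the core lay in 3 of 8 relatives (Ifit1bl1, Ifit1bl2 and Ifit3b), in 2 of 10 genes of the signal chain (Stat2 and Socs1) and in 0 of 5 ISG15 enzymes.

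The interferons themselves were at or near 0. Of 19 interferon genes, 6 were listed, and Ifnb1 was not among them. Ifng had 0, 0 and 0 counts against 4, 1 and 0, and Ifna13 had 5, 6 and 3 against 0, 1 and 5. Ifnz had 16.6, 9.67 and 10.5 counts against 19.4, 15.1 and 20.9, a log2 fold change of 0.44 that did not pass the test (SE 0.26, edgeR adjusted p = 0.191). Ifna12, Ifnab and Ifne had at most 3 counts in any library. Files list only genes above a minimum FPKM, and at this depth 3 counts corresponded to 0.06 to 0.09 CPM, the counts scaled to library size.

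**Figure D5:**
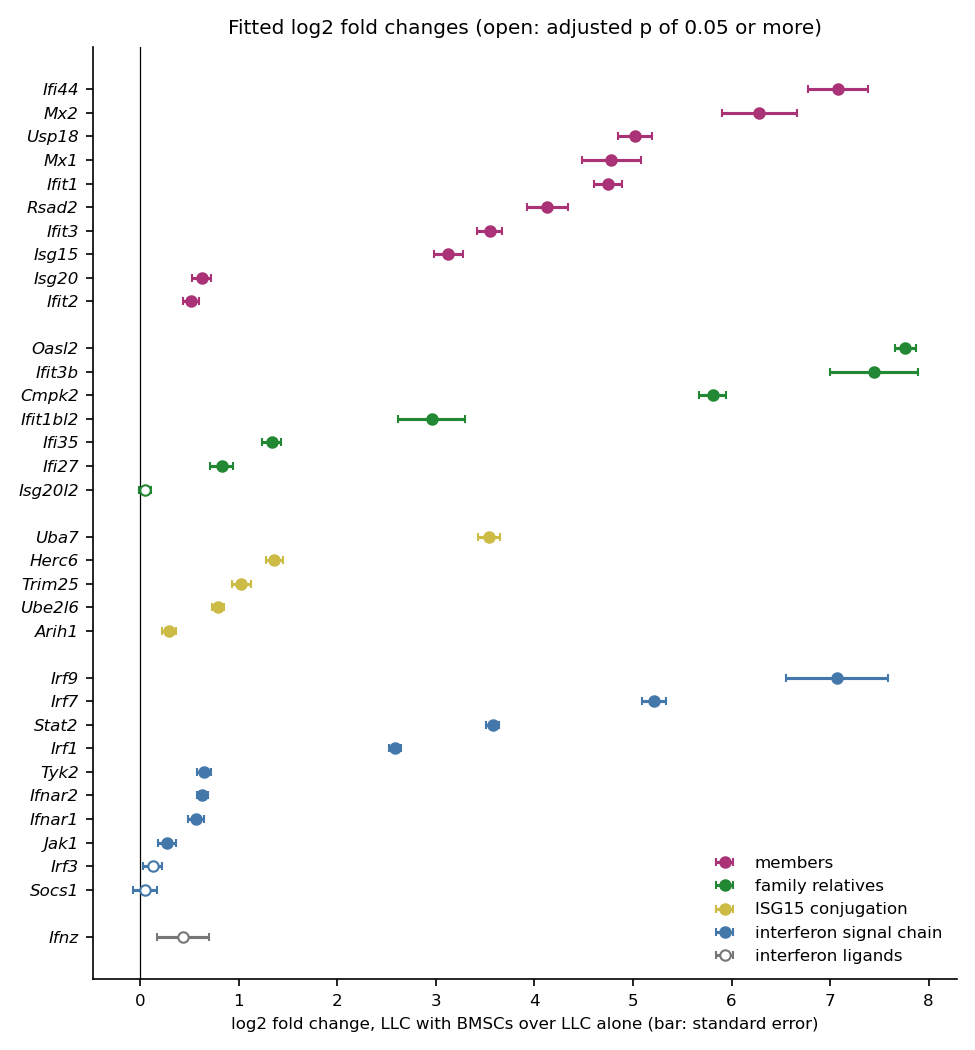
Fitted log2 fold changes of LLC with BMSCs over LLC alone, with standard errors as bars, for the 10 genes (members) and the tested genes of 4 lists around them; filled points passed the test. The 10 genes range from 0.51 (Ifit2) to 7.08 (Ifi44), and 4 of the 23 other genes did not pass: Isg20l2, Irf3, Socs1 and Ifnz.

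Markers of other cells moved with the groups too, in data where 31.5% of all tested genes were called higher and 31.3% lower. Several markers entered the test only through LLC with BMSCs, which fixed their direction. These were every tested neutrophil marker but Cxcr2, and Itgam, Adgre1, Ptprc, Mrc1, Col1a1, Dcn, Lum, Irf8 and Krt18. Summed over lists, neutrophil markers were at 0.48 to 0.78 CPM in LLC alone and 21.2 to 23.8 in LLC with BMSCs, led by S100a9 and S100a8, with 7 of 7 tested called higher while Ly6g had 1 to 4 counts in every library and Retnlg 3 at most. Macrophage markers were at 24.3 to 29.3 and 36.1 to 38.5 CPM, with 6 of 8 tested called higher and 1, Cd68, called lower. The 6 were Itgam (5 counts in all of LLC alone against 712), Adgre1 (0 against 202), Ptprc (19 against 311), Csf1r, Mrc1 and Lyz2. Cd14, the most abundant, did not pass the test (log2 fold change 0.065, edgeR adjusted p = 0.587), and C1qa, C1qb and C1qc had at most 3 counts. BMSC and fibroblast markers were at 366 to 431 and 793 to 845 CPM, with 10 of 10 tested called higher, led by Col3a1 (205 to 241 against 539 to 558) and Eng, and with Thy1 at 3 counts or fewer. Col1a1 had 2, 4 and 4 counts in LLC alone and 586, 499 and 477 in LLC with BMSCs. For Dcn the counts were 8, 8 and 8 against 506, 526 and 492. Log2 fold changes were smaller for Col3a1 (1.26), Pdgfra (0.47), Pdgfrb (0.41) and Eng (0.26). The plasmacytoid dendritic cell list went from 114–125 to 167–176 CPM, with 2 of 3 tested called higher. These were Irf8, with 7, 5 and 11 counts against 43, 46 and 34 (log2 fold change 2.31, edgeR adjusted p = 0.00018), and Bst2, itself an interferon-induced gene, at 8.73 to 10.1 and 66.2 to 76.3 CPM. Tcf4 was at 104 to 115 and 97.0 to 104, and Siglech, Ly6d and Klk1 were at 3 counts or fewer. Endothelial markers (12.1 to 15.5 and 12.3 to 13.0, with Egfl7 and Pecam1 the highest) and lymphocyte markers (0.39 and 0.25 to 0.38, with Cd8a and Cd79a the highest) had no gene called, of 3 endothelial and 0 lymphocyte markers tested. Among untested endothelial genes, Cdh5 had 2, 1 and 1 counts against 10, 8 and 14. Kdr had 3, 1 and 8 against 6, 5 and 4, Tek 8, 3 and 2 against 3, 1 and 0, and Emcn and Tie1 at most 3. Of the epithelial markers of the LLC line, 2 of 2 tested were called higher. Krt8 was at 158 to 179 and 187 to 195 CPM (log2 fold change 0.19, edgeR adjusted p = 0.0374), and Krt18 had 2, 4 and 8 counts against 41, 37 and 37 (2.91, adjusted p = 0.000221), with Epcam, Cdh1, Krt19 and Cldn4 at 5 counts or fewer.

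The 10 genes themselves summed to 31.3 to 32.1 CPM in LLC alone and 118 to 130 in LLC with BMSCs, a gain of 94.2 CPM, beside gains of 405 for the BMSC and fibroblast list, 52.7 for the plasmacytoid dendritic cell list, 23.7 for the epithelial list, 21.5 for the neutrophil list and 11.0 for the macrophage list, and changes of -0.96 and -0.07 for the endothelial and lymphocyte lists. The plasmacytoid dendritic cell list holds Bst2, the interferon-induced gene given above, at 8.73 to 10.1 CPM in LLC alone and 66.2 to 76.3 in LLC with BMSCs. The part of other cells in the levels of the 10 genes was not tested.

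Outside all lists, the 5 genes whose log2 CPM over the 6 libraries was most like the mean of the 10 were Oaf, Tpm4, Apol9b, Hspa8 and Sgol1, with Pearson's r from 0.9995 to 0.9999. Of 10549 genes compared, 4.12% had an r of at least 0.99. All of these values share the same libraries and groups. Apol9b, an interferon-induced apolipoprotein L gene, was at 0.74, 0.55 and 0.84 FPKM in LLC alone and 11.5, 12 and 12 in LLC with BMSCs. Hspa8, a constitutive chaperone, was at 816, 812 and 834 against 1151, 1177 and 1164, so that likeness of pattern was found at very different levels and sizes of change.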

How the data were processed

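RNA of flow-sorted LLC-RFP cells was sequenced by the study on the BGISEQ-500 as paired reads of 100 bp, while the labels name an Illumina protocol. The submitters' processing notes list HISAT, StringTie, Cufflinks, GATK and the build mm8 with no role or order. For each library and gene the authors deposited an expected count, an estimated count of fragments that need not be whole, and an FPKM value, and the same per transcript. Between 21.9% and 23.2% of listed genes had counts that were not whole. The deposited annotation columns were not used. Counts were rounded and tested with edgeR 4.0.16 (R 4.3.3), with 3 libraries against 3 and no covariate. The settings were TMM scaling, filterByExpr, the quasi-likelihood test, Benjamini-Hochberg adjustment over all tested genes and a threshold of 0.05. The step was also run on simulated data in which far fewer genes were changed than were called here, so that run does not bear on these calls. Genes not listed for a library were set to 0. FPKM served for levels, as mean ± SD. Count ratios carry exact 95% intervals, which cover counting error only.

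The members and lists were chosen with earlier results of these data known. Named are all 10 members, the listed genes of the ISG15, signal chain and relative lists, and interferons with over 3 counts in a library. Also named are the 2 most abundant markers of each list and the 5 genes most like the members with at least 100 normalized counts. Further markers were chosen after their values were seen. They are named for being at or near 0, for a call the other way, for how they entered the test, for the size of their change or to complete a count. Replicates of the same number did not deviate together (correlation of deviations 0.08, -0.11 and 0.06 for numbers 1, 2 and 3). Between other numbers it ran from -0.164 to 0.151. Such values cannot show whether the samples were paired by design. Alternatives were library size without TMM, upper-quartile scaling, DESeq2 1.42.0, no filter or 10 counts in every library, limma 3.58.1 on log2(FPKM + 1) and log2(FPKM + 0.1), a replicate block, removal of each library's trend over gene length, summing the closely alike libraries, a strict threshold and leaving out each library. Protein identity was not computed.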

Additional observations from a re-analysis of the deposited data

How the results depend on the processing

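In all 152 alternative fits of the 10 genes the direction and the call held, with a largest adjusted p of 0.013 and log2 fold changes from 0.35 to 7.94. With a replicate block, entered although replicates of the same number did not deviate together, all 10 members and 19 other pathway genes were still called higher, and the calls over all genes were 4161 higher and 4058 lower in place of 4210 and 4183. Requiring 10 counts in every library left 6 members to test, all 6 called higher, beside 3758 of the 12181 genes tested. On log2(FPKM + 1) limma tested 8 members and called all 8 higher, beside 3579 of the 11010 genes tested. Its values were smaller for low genes, such as 1.78 for Ifi44. Mx1 and Mx2 fell under its FPKM minimum of 1 in 3 libraries. At an adjusted p under 0.001 with a log2 fold change of at least 1, 12 of the 19 other pathway genes stayed called, beside 6.81% of all tested genes called higher.

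Of 357 alternative fits of those other genes, 346 kept direction and call. Isg20l2 reversed to -0.039 with the length trend removed, and the same setting took the calls of Arih1 (0.01) and Jak1 (0.03) and moved the calls over all genes to 3999 higher and 5354 lower. Jak1 also lost its call with the alike libraries summed (0.33), as did Arih1 (0.33), and without each LLC with BMSCs library (0.25 to 0.28). Irf3 was called without LLC alone replicate 3 (0.24, adjusted p = 0.00994), and Socs1, never called, was 0.189 with the length trend removed and, over the libraries left out in turn, ranged from -0.072 (LLC with BMSCs replicate 1 left out) to 0.142 (LLC alone replicate 3 left out) and was -0.008 when LLC alone replicate 2 was left out. With 1 mismatch allowed, 7 members held the response element core in place of 4. The cause of these changes was not tested. Depth limits Mx1, Mx2 and Ifi44, which had at most 4 counts in any LLC alone library.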
